A study of Mus musculus with 4 samples.

Results

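The colon defends its surface with small proteins that epithelial and myeloid cells secrete, and 9 genes for such proteins are described here in the inflamed colons of mice lacking the adaptor STAP-2 and of wild-type (WT) mice. The genes are Ang4, Ang, Retnlb, Itln1, Camp, Defb45, Lyz1, Slpi and Lypd8, out of 20832 genes named on the arrays and 15562 tested. Members were matched by the RefSeq accession of each probe's target, and for Camp, Defb45 and Itln1, which had 2 probes each, the probe was chosen by its mean log2 signal over the 4 arrays, the higher one being kept. The list of genes was drawn up with the genotype and pool differences of these arrays known, so the differences of its members are a description and no evidence of their own. All 9 were well above background on all 4 arrays, so no member was lost to the filter on dim probes.

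The samples were 2 pools from STAP-2-/- mice and 2 pools from WT mice, all C57BL/6J, 14 weeks old and given 1.75% dextran sulfate sodium (DSS) in drinking water, which damages the gut lining and brings on colitis. How long is unsettled, since the sample descriptions say 7 days and the treatment protocol says 3 days. RNA of the entire colon from 3 mice made up each pool, and each pool was hybridised to a 1-colour Agilent mouse array. STAP-2-/- 1 and WT 1 are called pool 1 here, and STAP-2-/- 2 and WT 2 pool 2. The labels do not say that a number stands for a shared litter, day or extraction. With 2 pools per genotype, the p-values measure the spread between these pools of mice.

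Goblet cells, Paneth cells and surface colonocytes release antimicrobial proteins into the mucus, where they keep bacteria away from the epithelium. Angiogenins are small ribonucleases, RELM-beta (the product of Retnlb) and intelectin bind bacterial surfaces, cathelicidin and defensins are cationic peptides, and lysozyme cuts the bacterial cell wall. Several of these genes are known to be induced by microbes and by cytokines, among them IL-22 acting through STAT3 and IL-13 acting through STAT6.

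The targeted gene Stap2 on chromosome 17 gave processed signals of 23.0 and 11.1 on the STAP-2-/- arrays, neither well above background, against 16148 and 17522 on the WT arrays. The 75th percentile of the signal was 2280 and 2348 on the STAP-2-/- arrays and 2134 and 2215 on the WT arrays. Values below are log2 of the processed signal minus log2 of that percentile, so 0 is the 75th percentile of the array. All 14 epithelial markers, 18 goblet cell markers and 16 surface colonocyte markers tested were well above background on all 4 arrays. A single slide and scan held every array. The pool 1 arrays sat at positions 2 (STAP-2-/-) and 1 (WT) and the pool 2 arrays at positions 4 (STAP-2-/-) and 3 (WT), so pool number and slide position cannot be told apart. Across 15145 genes, log2 differences between the pools of a genotype had an SD of 0.610 for STAP-2-/- and 0.398 for WT, while those between genotypes had an SD of 0.317 within pool 1 and 0.359 within pool 2.

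The 300 bases around the start of transcription (250 before and 50 after) are shown for Ang4 and Ang, the ribonuclease members, because both had lower signals in STAP-2-/- colons and lie in 1 gene cluster. They come from RefSeq on GRCm38.p6, where 8 of the 9 members had an entry. The Ang4 window is chr14:51773541-51773840 on the minus strand and the Ang window chr14:51090827-51091126 on the plus strand, and capitals mark a match to the STAT motif TTCNNNGAA.
Ang4: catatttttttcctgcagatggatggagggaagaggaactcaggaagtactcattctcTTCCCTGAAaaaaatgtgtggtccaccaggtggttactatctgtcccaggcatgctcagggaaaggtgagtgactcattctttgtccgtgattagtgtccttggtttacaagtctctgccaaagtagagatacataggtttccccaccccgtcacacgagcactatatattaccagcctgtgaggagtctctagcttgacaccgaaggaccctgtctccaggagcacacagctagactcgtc
Ang: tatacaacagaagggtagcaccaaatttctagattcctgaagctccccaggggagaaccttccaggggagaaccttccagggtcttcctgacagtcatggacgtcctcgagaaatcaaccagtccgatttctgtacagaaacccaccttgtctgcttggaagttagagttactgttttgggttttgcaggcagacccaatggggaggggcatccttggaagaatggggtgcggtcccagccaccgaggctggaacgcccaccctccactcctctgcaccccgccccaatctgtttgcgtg
The Ang4 match starts 192 bases before the start of transcription. TTCNNNGAA reads the same on both strands and occurred in 8.47% of 27025 promoter windows of that length, and of the members' windows (Lypd8 has 2) it was found in that of Ang4. The related STAT6 motif, with 1 more base between TTC and GAA, occurred in 6.99% of windows and TATAAA, searched on both strands, in 14.2%, and neither was found in a window of a member. A match is a description of the letters and shows no binding.

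Of the 9 members, 7 had a lower mean in STAP-2-/- colons, as did 51.7% of all tested genes, and 2 had a higher one, Slpi and Lypd8. Retnlb (6.09-fold lower) and Ang4 (4.57-fold lower) were farthest apart, an order that turned on single arrays: without STAP-2-/- 1 the log2 difference was -1.04 for Retnlb, -1.60 for Ang4 and -3.24 for Defb45, and without WT 2 it was -2.34 for Retnlb and -2.95 for Ang4. In 5 members, Ang4, Ang, Retnlb, Camp and Lyz1, both STAP-2-/- values lay below both WT values, where 13.3% of all tested genes did so. For 3 of them, Ang4, Ang and Retnlb, the means were also at least 2-fold apart, against 0.463% of all tested genes. No member was higher in STAP-2-/- colons without overlap, where 11.5% of tested genes were, or 0.328% with means at least 2-fold apart. The median log2 difference of the members was -0.51, against -0.0068 over all genes tested. That median was -0.34 without WT 1, -1.41 without WT 2 and -0.85 when the probes of a gene were averaged. The highest and the lowest array differed by at least 2-fold for 6 members, against 12.5% of genes, and the median log2 range over the 4 arrays was 1.81 for the members and 0.416 for all genes.

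No member passed the limma test, all with a Benjamini-Hochberg adjusted p of 1.0. At an adjusted p under 0.05, 0 of the 15562 genes passed, or 0%. The lowest adjusted p of any gene was 0.31 (limma), that of the deleted gene Stap2 at a log2 difference of -10.1. The test thus did not call even Stap2, and its count of 0 says little about the members. At an unadjusted p under 0.05 there were 2 members, Ang4 and Camp, and 325 genes or 2.09% of all.

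**Figure D1:**
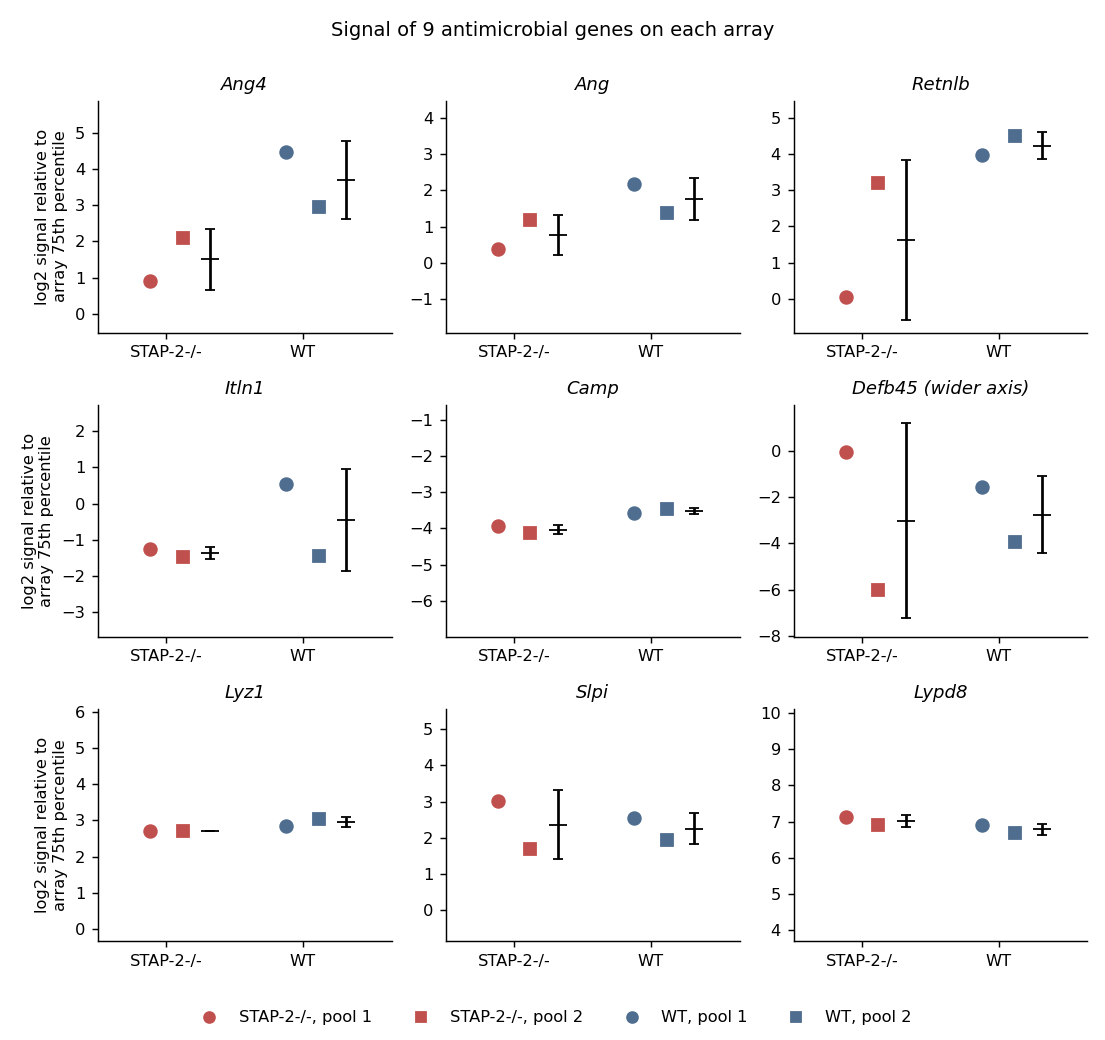
Log2 signal relative to the array's 75th percentile for the 9 genes, with the STAP-2-/- pools left of the WT pools, circles for pool 1, squares for pool 2, and bars for the mean and SD of 2 arrays. All panels span the same height except Defb45. The STAP-2-/- points of Ang4, Ang and Retnlb lie below both WT points, those of Defb45 lie on both sides of them, and Lyz1 and Lypd8 vary by under 0.5 over the arrays.

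Ang4 encodes angiogenin 4, a ribonuclease with bactericidal activity made by Paneth and goblet cells. Its log2 signal was 0.92 on STAP-2-/- 1 and 2.10 on STAP-2-/- 2, against 4.46 on WT 1 and 2.94 on WT 2. Both STAP-2-/- pools were below both WT pools, and the lowest and the highest value were those of the pool 1 arrays. The means were 1.51 ± 0.84 in STAP-2-/- and 3.70 ± 1.07 in WT colons (SD, n = 2 each), a log2 difference of -2.19 (SE 0.70). Between arrays of equal number the signal was 11.7-fold lower in STAP-2-/- in pool 1 and 1.79-fold lower in pool 2. Without WT 1 the log2 difference was -1.43. In a whole-organ sample, fewer cells of a type and less RNA per cell cannot be told apart.

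Ang, on chromosome 14 like Ang4, encodes angiogenin, a ribonuclease that promotes vessel growth and cleaves transfer RNA under stress. It had log2 signals of 0.38 and 1.17 on STAP-2-/- 1 and 2, against 2.18 and 1.37 on WT 1 and 2. The order of the 4 arrays was that of Ang4, with a smaller spread. The means were 0.77 ± 0.56 in STAP-2-/- and 1.77 ± 0.58 in WT colons (SD, n = 2 each), a log2 difference of -1.0 (SE 0.43), and STAP-2-/- was 3.50-fold lower than WT in pool 1 and 1.15-fold lower in pool 2. The difference was -0.60 without STAP-2-/- 1 and -0.59 without WT 1.

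Among the other genes of the ribonuclease A superfamily, 11 were tested, and 6 were higher and 5 lower in STAP-2-/- colons with a median log2 difference of 0.053. The 1 of them without overlap was Ang2, a further angiogenin, at -1.01 and 0.036 on STAP-2-/- 1 and 2 against 2.09 and 0.69 on WT 1 and 2. Its mean was 3.66-fold lower in STAP-2-/- colons (log2 difference -1.87, SE 0.64). Next in size were Rnh1, the ribonuclease inhibitor, with 1.64 and 1.14 in STAP-2-/- against 1.41 and 0.95 in WT colons, and Ear6, an eosinophil-type ribonuclease, with -4.02 and -4.55 in STAP-2-/- against -3.83 and -4.31 in WT colons. Both were higher in pool 1 of either genotype, as was Rnase10. Angiogenins are close paralogs and the probe letters were not examined here, so binding of each other's RNA by the probes of Ang, Ang2 and Ang4 was not tested.

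Other neighbours in the cluster did not follow this order. RefSeq lists 15 protein-coding genes from Ang to Ang4 on chromosome 14, 11 of them on the array by accession and 5 tested, Ang, Ang2 and Ang4 among them. Rnase6 differed by -0.067 (SE 0.38) and Rnase2a by 0.17 (SE 0.38). Rnase4, which precedes Ang and is known to share its locus and its upstream promoter, had 1.75 and 2.61 on STAP-2-/- 1 and 2 against 1.92 and 2.19 on WT 1 and 2. Its log2 difference was 0.13 (SE 0.35), the pool 2 arrays being the higher ones in both genotypes. Of the 2 start windows that RefSeq gives for Rnase4, 1 is the same 300 bases printed above for Ang.

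**Figure D2:**
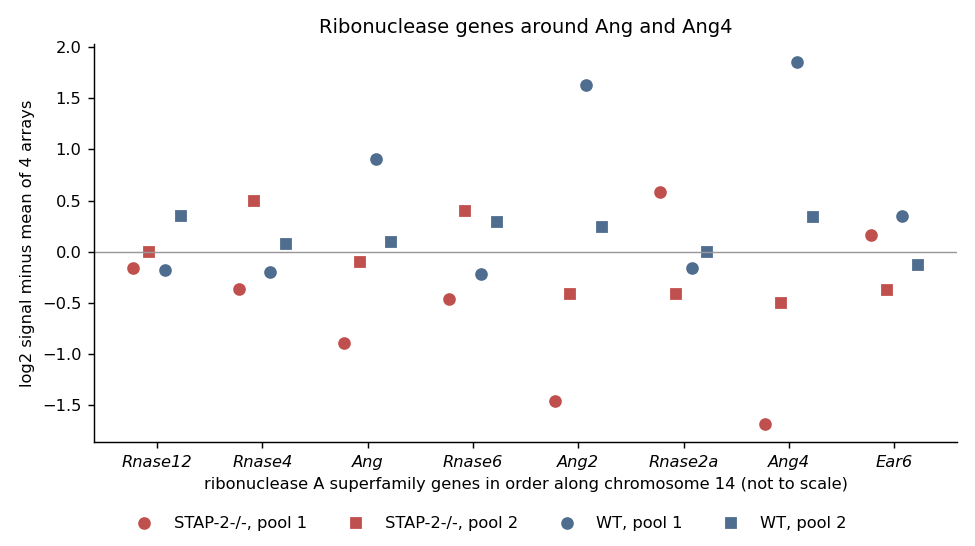
Log2 signal minus each gene's mean of the 4 arrays for the tested ribonuclease A superfamily genes around Ang and Ang4, in their order on chromosome 14 and not to scale, with circles for pool 1 and squares for pool 2. Ang, Ang2 and Ang4 show WT 1 on top and STAP-2-/- 1 at the bottom, while Rnase4 and Rnase6 show both pool 2 arrays above both pool 1 arrays.

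Retnlb, on chromosome 16, encodes RELM-beta, a goblet cell protein that kills Gram-negative bacteria. Its log2 signal was 0.057 on STAP-2-/- 1 and 3.19 on STAP-2-/- 2, against 3.96 on WT 1 and 4.49 on WT 2. The STAP-2-/- 1 pool stood apart from the other 3, and STAP-2-/- 2 was still below both WT pools. Pool 2 was above pool 1 in both genotypes, by 8.75-fold in STAP-2-/- and 1.44-fold in WT colons. The means were 1.62 ± 2.21 in STAP-2-/- and 4.23 ± 0.37 in WT colons (SD, n = 2 each), a log2 difference of -2.61 (SE 1.14), which became -1.04 when STAP-2-/- 1 was left out and -4.17 when STAP-2-/- 2 was. Against the WT array of equal number, STAP-2-/- was 15.0-fold lower in pool 1 and 2.47-fold lower in pool 2.

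The resistin family has 3 further genes, all tested, of which 2 were higher and 1 lower in STAP-2-/- colons (median 0.041). Retn, the adipokine resistin, had 1.60 and 0.88 in STAP-2-/- colons against 2.44 and 2.00 in WT colons, with no overlap. Retnla, a product of macrophages and epithelium under type 2 immunity, had 2.14 and 0.98 in STAP-2-/- against 2.05 and 0.995 in WT colons, higher in pool 1 of both genotypes. Retnlg, a neutrophil gene, had -2.90 and -1.73 in STAP-2-/- against -3.48 and -1.54 in WT, higher in pool 2 of both.

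Itln1, on chromosome 1, encodes intelectin, a lectin of goblet and Paneth cells that binds microbial glycans. Its log2 signals were -1.24 and -1.48 on STAP-2-/- 1 and 2 against 0.54 and -1.46 on WT 1 and 2. WT 1 alone was high, and the other 3 arrays lay close together with the genotypes overlapping. The log2 difference of -0.90 (SE 0.73) became 0.095 without WT 1 and -1.90 without WT 2. A second probe for Itln1 gave the same picture at a lower signal, with -2.31 and -2.47 in STAP-2-/- against -0.51 and -2.53 in WT colons.

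Goblet cell markers, of which 18 were tested, were lower in STAP-2-/- colons in 12 and higher in 6, with a median log2 difference of -0.091. Their summed signal, in units of the array's 75th percentile, was 1106 and 952 in the STAP-2-/- pools against 1143 and 1014 in the WT pools. The part of goblet cell number in the differences of Ang4, Retnlb and Itln1 was not tested. Clca1, an abundant mucus protein, had 7.54 and 6.93 in STAP-2-/- against 7.54 and 7.22 in WT colons. Spink4, a secreted protease inhibitor of goblet cells, had 6.30 and 6.30 in STAP-2-/- against 6.62 and 6.48 in WT, and St6galnac1, which sialylates mucins, 1.01 and 0.62 in STAP-2-/- against 1.45 and 1.27 in WT. Galnt12, which starts mucin glycosylation, was also lower without overlap, with 3.63 and 4.25 in STAP-2-/- against 4.36 and 4.46 in WT. Klk1, a secreted kallikrein, was higher without overlap, with 6.93 and 6.94 in STAP-2-/- against 6.77 and 6.56 in WT. In all, 3 goblet markers were lower without overlap, or 16.7%, against 13.3% of all tested genes. Another 2 of the 18 were higher without overlap, where 11.5% of all tested genes were. Of 7 deep crypt secretory markers, 4 were higher and 3 lower, with a median of 0.0080, and Reg4, which marks these cells, had 3.82 and 0.50 in STAP-2-/- against 1.93 and 0.997 in WT colons. Reg4 was thus higher in pool 1, whereas 5 of the 7, Kit, Cd24a, Spdef, Wnt11 and Guca2a, were lower in pool 1 without overlap and highest on STAP-2-/- 2. Of all tested genes, 26.4% were lower in pool 1 without overlap.

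Lyz1, on chromosome 10, encodes the lysozyme of Paneth cells. It had log2 signals of 2.71 and 2.71 on the STAP-2-/- arrays against 2.86 and 3.05 on the WT arrays. The genotypes did not overlap, but the gap was small, with a log2 difference of -0.24 (SE 0.14) or 1.18-fold, which was -0.15 without WT 2. Lyz2, the macrophage lysozyme and a close paralog whose RNA the same probe could in part bind, had 0.55 and 0.32 in STAP-2-/- against 0.51 and 0.43 in WT colons. The 5 other lysozyme family genes tested, Lyz2 included, were higher in 3 and lower in 2 (median 0.014), and all 5 had higher means in pool 1. Lyzl4 was lower without overlap, with -2.46 and -2.75 in STAP-2-/- against -2.21 and -2.32 in WT.

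Paneth cells are sparse in the colon, and of 8 further Paneth markers on the array Defa5, Defa21 and Defa26 were not well above background on any array. Of 5 tested, 3 were higher and 2 lower, with a median of 0.0018. The alpha-defensin genes were the lower ones: Defa23 had -6.49 and -5.91 in STAP-2-/- against -3.82 and -5.07 in WT colons and was well above background on 3 of the 4 arrays. Defa3 was well above background on both WT arrays, at -4.75 and -5.68, and on neither STAP-2-/- array. Alpha-defensin genes are near-identical to each other, so their signals cannot be told apart with certainty. Mmp7, the protease that activates alpha-defensins in mouse, had -3.05 and -1.89 in STAP-2-/- against -3.90 and -2.54 in WT.

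Camp, on chromosome 9, encodes cathelicidin, a peptide of neutrophil granules and epithelium. It had log2 signals of -3.94 and -4.12 in STAP-2-/- against -3.58 and -3.46 in WT colons. Both STAP-2-/- pools were lower in a narrow spread, with means of -4.03 ± 0.12 in STAP-2-/- and -3.52 ± 0.089 in WT colons (SD, n = 2 each) and a log2 difference of -0.51 (SE 0.15), or 1.43-fold. The second Camp probe differed by -0.39 in the same direction.

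Neutrophil markers, 17 tested, were lower in 11 and higher in 6 (median -0.12), and Ngp, Prtn3, Ctsg and Mmp8 were not well above background on any array. Of the 17, 12 were higher in pool 2, with a median pool 1 minus pool 2 of -0.67. Csf3r, the receptor for the growth factor of neutrophils, carried most of their summed signal of 59.3 and 46.4 in STAP-2-/- against 60.6 and 55.1 in WT colons. Without it the sum was 2.41 and 2.92 in STAP-2-/- against 2.33 and 5.11 in WT colons, highest on WT 2. S100a9, a subunit of the neutrophil protein calprotectin, had -3.71 and -1.30 in STAP-2-/- against -4.08 and 1.02 in WT colons, a pool difference that Camp did not show. Its partner S100a8 had -4.95 and -3.29 in STAP-2-/- against -4.80 and -1.11 in WT colons. Ltf, the granule protein lactoferrin, had -5.18 and -4.80 in STAP-2-/- against -5.29 and -4.96 in WT. Macrophage and monocyte markers, 14 tested, were higher in 9 and lower in 5, with a median of 0.052, the complement gene C1qb among the higher at 0.14 and 0.39 in STAP-2-/- against 0.054 and -0.076 in WT. The part of these cells in the Camp difference was not tested.

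Defb45, a beta-defensin gene on chromosome 2, varied most of all members, and by pool number. Its log2 signal was -0.040 on STAP-2-/- 1 and -6.00 on STAP-2-/- 2, against -1.59 on WT 1 and -3.94 on WT 2. Both WT values lay between the STAP-2-/- values, and both pool 1 values were above both pool 2 values. Pool 1 exceeded pool 2 by 62.3-fold in STAP-2-/- and 5.11-fold in WT colons. The 62.3-fold rests on a dim value, a processed signal of 36.7 on STAP-2-/- 2. On that array the lowest signal well above background was 22.6, so the size of this fold is uncertain. The means were -3.02 ± 4.21 in STAP-2-/- and -2.76 ± 1.66 in WT colons (SD, n = 2 each), a log2 difference of -0.26 (SE 2.30). That difference was -3.24 without STAP-2-/- 1, 2.72 without STAP-2-/- 2, 0.92 without WT 1 and -1.43 without WT 2. The second probe had -0.49 on STAP-2-/- 1, -2.13 on WT 1 and -4.42 on WT 2, and was not well above background on STAP-2-/- 2.

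Of 41 other beta-defensin genes on the array, 29 were not well above background on any array and 9 were tested, 5 of them higher and 4 lower in STAP-2-/- colons (median 0.24). Defb42 was well above background on both STAP-2-/- arrays, at -5.87 and -5.13, and on neither WT array. Defb28 had -5.02 and -4.71 in STAP-2-/- against -4.36 and -4.09 in WT colons, without overlap, and Defb39 -5.62 and -5.24 in STAP-2-/- against -4.76 and -5.14 in WT. Between pools, Defb40 had -2.94 and -1.87 in STAP-2-/- against -3.16 and -2.46 in WT colons, and Defb26 had -4.13 and -3.90 in STAP-2-/- against -4.53 and -3.35 in WT. Both were higher in pool 2 of either genotype. Defb36 was higher in pool 1, at -5.69 on STAP-2-/- 1 and -5.47 and -5.77 on WT 1 and 2, and was not well above background on STAP-2-/- 2.

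Slpi, on chromosome 2, encodes a secretory leukocyte protease inhibitor that also kills bacteria. It had log2 signals of 3.03 and 1.69 in STAP-2-/- against 2.56 and 1.95 in WT colons, so that both pool 1 values were above both pool 2 values and the genotypes overlapped. Pool 1 exceeded pool 2 by 2.54-fold in STAP-2-/- and 1.52-fold in WT colons, while the genotype difference was 0.10 (SE 0.54). It was -0.57 without STAP-2-/- 1, 0.78 without STAP-2-/- 2, 0.41 without WT 1 and -0.20 without WT 2. Of 12 other WAP-domain genes, 10 were lower and 2 higher in STAP-2-/- colons with a median of -0.096. Wfdc2, an antimicrobial of epithelia, followed the pool order of Slpi with 5.18 and 3.46 in STAP-2-/- against 4.80 and 4.26 in WT. Wfdc21 had -5.33 and -4.66 in STAP-2-/- against -4.46 and -3.49 in WT colons, lower without overlap. Wfdc13, the only gene of this list with an unadjusted p under 0.05 (limma), was higher without overlap, with -0.70 and -0.80 in STAP-2-/- against -1.10 and -1.38 in WT colons. Wfdc12 had -6.18 and -5.58 in STAP-2-/- against -5.95 and -4.50 in WT colons. Wfdc16 was higher in pool 1, at -4.32 on STAP-2-/- 1 and -5.35 and -6.17 on WT 1 and 2, and was not well above background on STAP-2-/- 2.

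Lypd8, on chromosome 11, encodes a protein that surface colonocytes shed and that holds flagellated bacteria back from the inner mucus. Its log2 signals of 7.14 and 6.90 in STAP-2-/- against 6.90 and 6.68 in WT colons stayed within 1.37-fold of each other. The log2 difference was 0.23 (SE 0.17), with STAP-2-/- 2 and WT 1 both at 6.90, and was 0.11 without STAP-2-/- 1 and 0.12 without WT 2. Other surface colonocyte markers, 16 tested, were lower in 11 and higher in 5 (median -0.099). Several of them varied more, as Aqp8, a water channel, with 6.67 and 4.29 in STAP-2-/- against 6.24 and 5.78 in WT colons. The summed signal of the 16 was 696 and 778 in the STAP-2-/- pools against 761 and 733 in the WT pools. Slc26a3, the chloride exchanger of the surface, was likewise lowest on STAP-2-/- 2, with 4.83 and 3.09 in STAP-2-/- against 4.78 and 4.27 in WT. Other markers of the list, Car1, Cyp2c55, Fabp2, Guca2a, Guca2b and Alpi, were instead highest on STAP-2-/- 2. Fabp2 had 4.82 and 6.18 in STAP-2-/- against 5.74 and 5.70 in WT colons. Epithelial markers, 14 tested, were lower in 9 and higher in 5, with a median of -0.014.

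The genotype difference was not equal in the pools. In pool 1, 6 of 9 members were lower in STAP-2-/-, and in pool 2, 8 of 9 were, with 6 lower in both. Each of these signs compares 1 array with 1, and the share of all genes was not computed within a pool. The log2 difference of Ang4, Ang, Retnlb and Itln1 was larger in pool 1, at -3.54, -1.81, -3.91 and -1.78, than in pool 2, at -0.84, -0.20, -1.30 and -0.027. Camp and Lyz1 went the other way, with -0.36 and -0.15 in pool 1 against -0.66 and -0.34 in pool 2. Between pools, 4 members (Defb45, Itln1, Slpi and Lypd8) were higher in pool 1 with no overlap, against 36.0% of tested genes, and 0 were lower, against 26.4%. In Defb45 and Itln1 the pool means were also at least 2-fold apart, against 2.40% of genes for pool 1 higher and 2.15% for pool 1 lower. For Itln1 this rested on WT 1, with pool 1 above pool 2 by 3.99-fold in WT but 1.18-fold in STAP-2-/- colons. Lypd8 is separated only by the near-equal values of WT 1 and STAP-2-/- 2, and the count was 3 with median scaling, with quantile scaling and with the percentile taken over the probes detected on every array, and 6 without STAP-2-/- 1 or without WT 2. A pool with a single array left is separated more easily, and the share of all genes was not computed for that case.

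**Figure D3:**
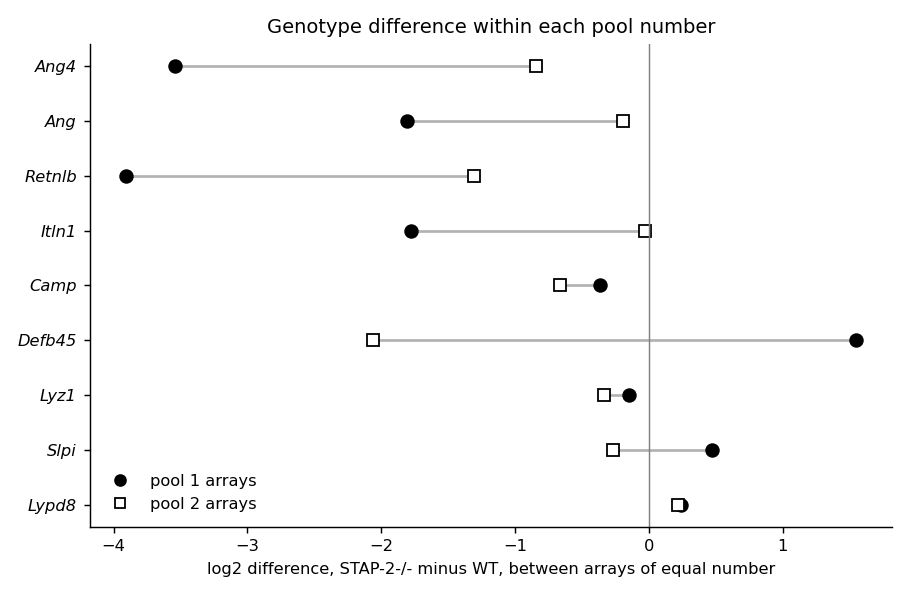
Log2 difference of STAP-2-/- minus WT for each gene, taken between the arrays numbered 1 (filled circles) and between those numbered 2 (open squares), with a line joining both. Ang4, Ang, Retnlb and Itln1 lie farther below 0 in pool 1, Defb45 and Slpi lie on opposite sides of 0, and both Lypd8 points are near 0.2.

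For 6 members, those whose 4 values spanned over 1 log2 unit, the genes nearest in pattern were found by the root mean square distance of values centred on each gene's mean, over 4 arrays and 14414 other genes well above background on all of them. Slpi, with a range of 1.35, was the narrowest included and Camp, with 0.66, the widest left out. The gene nearest to Ang4 was Ang2 (distance 0.17), followed by Nos2, the inducible nitric oxide synthase (0.28). Nos2 had -1.02 and 0.50 on STAP-2-/- 1 and 2 against 2.50 and 0.55 on WT 1 and 2.

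Nearest to Retnlb were Dlk1 (0.64), Kcne2 (0.73), Isl2 (0.80) and Tnf (0.81). Nearest to Defb45 were Cyp2f2 (0.44), the homeobox gene Hoxd13 (0.52), the proton pump gene Atp12a (0.56) and the peptide transporter gene Slc15a1 (0.63). Hoxd13, which patterns the most distal gut in the embryo, had 1.41 and -5.83 on STAP-2-/- 1 and 2 against -0.15 and -2.77 on WT 1 and 2, the array order of Defb45. The nearest genes to Ang were Oxtr (0.09) and Lpar3 (0.10), to Itln1 Spata17 (0.19) and Gna12 (0.25), and to Slpi Fam8a1 (0.02) and Ttll6 (0.03). With 4 arrays a small distance is easily met by a gene of modest range, as for Slpi.

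**Figure D4:**
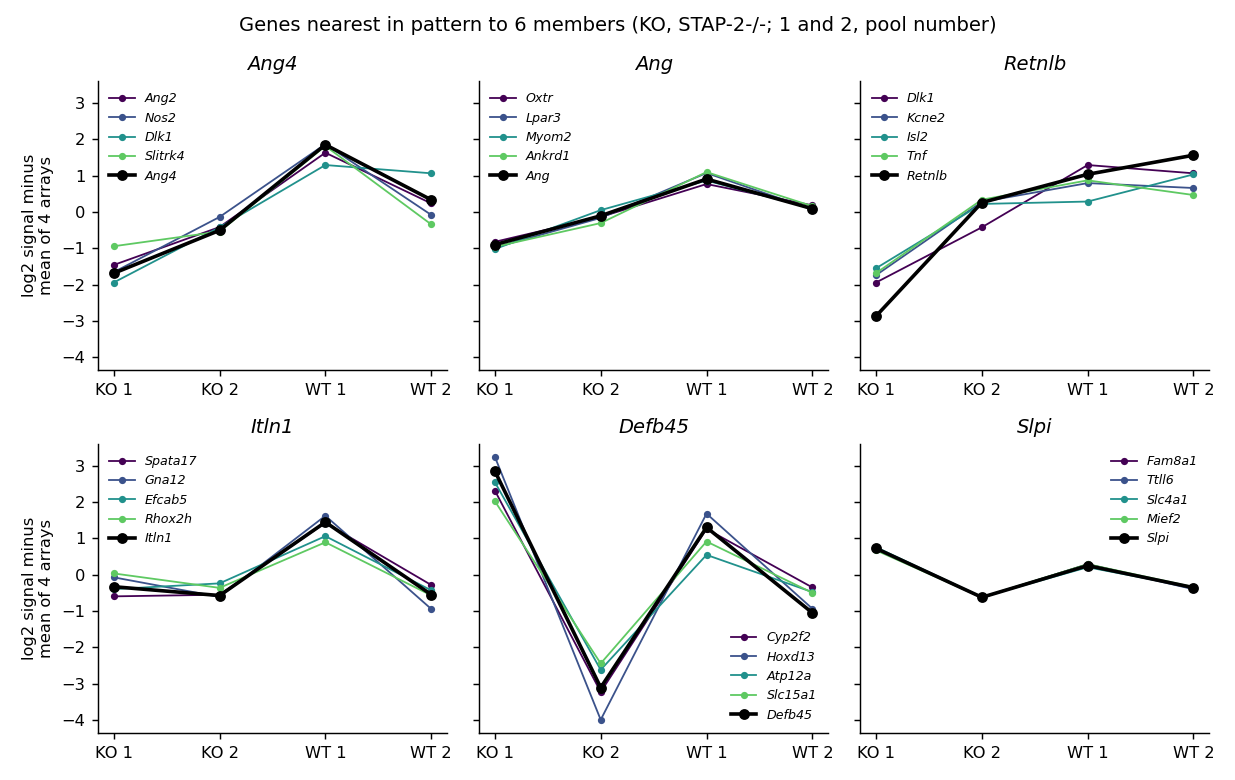
Log2 signal minus the mean of 4 arrays for 6 members (black) and the 4 genes nearest to each (colours), with the STAP-2-/- arrays (KO) left of the WT arrays. Ang2 and Nos2 run with Ang4, Hoxd13 and Cyp2f2 with Defb45, and Retnlb lies below its nearest genes on STAP-2-/- 1.

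Of 24 other secreted antimicrobial genes of the gut that were tested, 20 had a lower mean in STAP-2-/- colons, or 83.3%, with a median log2 difference of -0.36. Only 3 of them, 12.5%, were lower without overlap, close to the 13.3% of all tested genes. The bactericidal lectins Reg3b and Reg3g were higher in pool 2 of both genotypes, the pool direction of Retnlb. Reg3b had 3.23 and 6.32 in STAP-2-/- against 4.55 and 6.91 in WT colons, and Reg3g had 1.55 and 5.22 in STAP-2-/- against 2.94 and 5.77 in WT. Mptx1, a pentraxin of the mucosa, had 6.80 and 2.43 in STAP-2-/- against 6.32 and 5.51 in WT colons, high in pool 1 as Defb45 was.

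The cytokine axes known to induce several of these genes were also read. Of 15 IL-22 and STAT3 axis genes, 13 were lower and 2 higher in STAP-2-/- colons with a median of -0.18. Socs3, the feedback inhibitor that STAT3 induces, had 1.07 and 0.97 in STAP-2-/- against 2.09 and 2.64 in WT colons. Duoxa2, the maturation factor of an epithelial oxidase, had 0.060 and 1.13 in STAP-2-/- against 2.20 and 2.27 in WT. Il22 itself had -5.38 and -6.50 in STAP-2-/- against -5.31 and -3.22 in WT colons. All 15 were well above background on all 4 arrays, but the Il22 value on STAP-2-/- 2 was close to the lowest signal so flagged there. Of 17 IL-4 and IL-13 axis genes, 13 were lower and 4 higher (median -0.13), among them Il1rl1, the IL-33 receptor, with -3.75 and -1.57 in STAP-2-/- against -3.14 and -0.80 in WT, and the chitinase-like Chil3 with -5.38 and -3.94 in STAP-2-/- against -5.37 and -2.18 in WT. Both were higher in pool 2 of either genotype. Il5 was well above background on both WT arrays, at -4.48 and -6.56, and on neither STAP-2-/- array. The 16 microbial sensing genes were lower in 9 and higher in 7 (median -0.066), with the cytokine gene Il18 at 3.96 and 2.07 in STAP-2-/- against 4.01 and 3.62 in WT. Across these 16 lists 188 genes were tested, 0 passed the adjusted threshold by limma, and 9 had an unadjusted p under 0.05. Of all 15562 genes tested, 325 or 2.09% had such a p by limma. The lists were chosen with earlier results of these data known, so the count of 9 is a description.

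**Figure D5:**
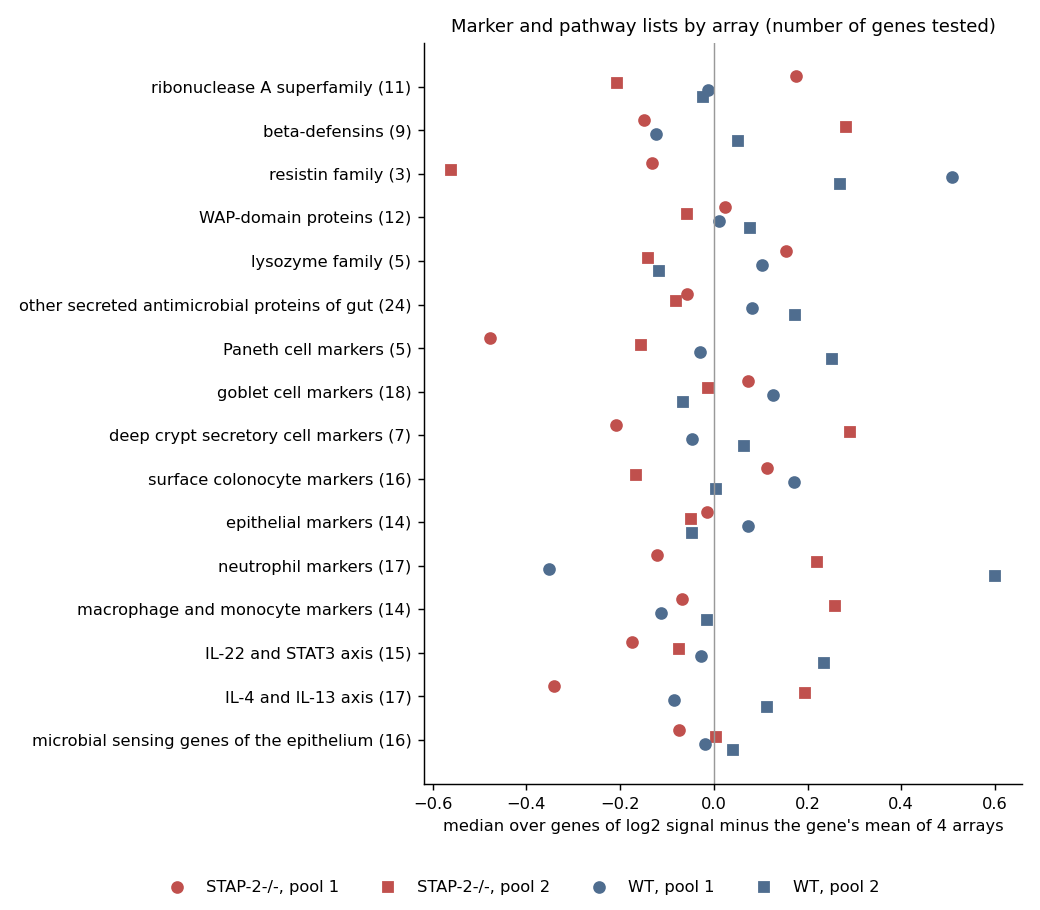
For each gene list, the median over its tested genes of the log2 signal minus the gene's mean of 4 arrays, with 1 point per array, STAP-2-/- arrays above WT arrays within a list, circles for pool 1 and squares for pool 2. Both STAP-2-/- points lie left of both WT points for 4 of the 16 lists, the resistin family (3 genes), the other antimicrobial genes, the Paneth markers (5 genes) and the IL-22 and STAT3 axis. In 2 of these most genes had a higher mean in STAP-2-/- colons, 2 of 3 resistin genes and 3 of 5 Paneth markers. Goblet and epithelial medians stay close to 0, and neutrophil medians lie farther right in pool 2.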

How the data were processed

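Each of 4 arrays held 1 pool of colon RNA labelled with Cy3. The deposited scanner output gives for every spot a signal intensity that, per the file headers, the software had corrected for background and spatial trend, together with quality flags. No scaling between arrays had been applied to it. They came from Agilent Feature Extraction 10.7.1.1, per the submitters' processing notes. The deposited value table holds a ratio, the processed signal over 1 constant per array (within 1% for at least 99.9% of probes), and was used as an alternative.

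Intensities were divided by the array's 75th percentile over non-control spots and taken to log2. Outlier-flagged spots were left out, spots of a probe were averaged, and 0 spots were saturated. Of 39429 probes, 27427 were named through RefSeq accessions (GRCm38.p6), giving 20832 genes. Genes well above background on both arrays of a genotype were tested with limma 3.58.1 (R 4.3.3) without covariate and with Benjamini-Hochberg adjustment over all 15562 genes. The fit was tested on data simulated with independent arrays, so that test does not cover the shared deviations of same-numbered arrays given below. The number of arrays limits the precision. Same-numbered arrays deviated together from their genotype means (correlation 0.631). Tables and figures were made with Python 3.11.15, pandas 2.3.3 and matplotlib 3.10.9. Promoter windows are RefSeq's.

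The members and the gene lists were chosen with earlier results of these data known. Named genes are the 9 members, up to 4 genes of each list with the largest genotype differences and up to 3 with the largest pool differences (not every one is printed), some markers fixed by name, and the genes nearest in pattern. Normexp correction used the median spot intensity, since the files hold no mean.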

Additional observations from a re-analysis of the deposited data

Results flagged for a closer look

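In 4 members the difference between pools had opposite signs in the genotypes. Pool 1 minus pool 2 was -1.18 in STAP-2-/- and 1.52 in WT colons for Ang4, and for Ang it was -0.79 in STAP-2-/- and 0.82 in WT colons. For Camp it was 0.17 in STAP-2-/- and -0.13 in WT colons, and for Lyz1 0.0057 in STAP-2-/- and -0.19 in WT colons. In 2 members the genotype difference had opposite signs in the pools. STAP-2-/- minus WT was 1.55 in pool 1 and -2.06 in pool 2 for Defb45, and 0.47 in pool 1 and -0.27 in pool 2 for Slpi. Each sign rests on 1 array against 1, and none of these 6 differences was tested.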

How the results depend on the processing

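Under the 11 alternatives that kept all 4 arrays, the log2 differences of 8 members kept their sign, and that of Defb45 was 0.15 with normexp background correction. Some of the 11 could not change a member's difference: both changes of the filter on dim probes, the intensity trend with robust fit, and the replicate block. Keeping outlier-flagged spots also left every member's difference as it was. The count of members past the threshold stayed 0 in all 15 alternatives, and that of all genes was 1, Stap2, with normexp. Leaving out 1 array gave 5 to 8 members lower without overlap, 8 without STAP-2-/- 1, and moved their median log2 difference to between -1.41 and -0.34. A genotype with 1 array left is separated more easily, and the share of all genes was not computed there, so these counts cannot be set against the full data. The median was -0.85 with the probes of a gene averaged. The log2 difference ran from -2.95 to -1.43 for Ang4, -4.17 to -1.04 for Retnlb, -3.24 to 2.72 for Defb45, -1.90 to 0.095 for Itln1 and -0.57 to 0.78 for Slpi (-0.20 without WT 2, and 0.92 for Defb45 without WT 1). With the replicate block, 1040 genes in place of 325 had an unadjusted p under 0.05 and the members' differences were the same. Without 1 array that count ran from 143 to 830, with none past the adjusted threshold. The labels tie equal numbers to no shared source.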
